A study of Homo sapiens with 12 samples.

Results

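Chaperonins are barrel-shaped machines in which newly made proteins fold. The 10 genes described here encode 2 of them, the cytosolic chaperonin TRiC (also called CCT) with its subunits TCP1, CCT2, CCT3, CCT4, CCT5, CCT6A, CCT7 and CCT8, and the mitochondrial chaperonin HSP60 (HSPD1) with its lid HSP10 (HSPE1). They were taken by symbol from a table of 20332 genes, and each symbol matched 1 row, so all 10 were found. They were measured in 12 bulk RNA-seq libraries of Ishikawa and KLE cells, established human endometrial cancer lines grown in the same serum-supplemented medium. Each line was left untreated or given 200 µM CuCl2 for 24 h, with 3 libraries in each of the 4 groups, called independent biological replicates in the labels. Control cells are labelled as untreated and also as vehicle, and no genotype change or other agent is given for any group. The question put by the design is how a copper overload changes RNA levels in each line, and whether the lines respond alike.

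TRiC is a hetero-oligomer of stacked rings in which each ring holds 1 copy of each of the 8 subunits. It folds actin, the tubulins and many WD40-repeat proteins, often after they have been handed over by prefoldin, and phosducin-like proteins act on it as cofactors. HSP60 forms rings from copies of a single protein, folds proteins that have been imported into the mitochondrial matrix, and works with HSP10 as a detachable lid. Chaperone genes of the cytosol are classic targets of heat shock factor 1 (HSF1), which binds heat shock elements made of alternating nGAAn units in promoters.

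In the GENCODE annotation of GRCh38, TCP1 lies at chr6:159778498-159789749 on the minus strand, HSPD1 at chr2:197486581-197516737 on the minus strand and HSPE1 at chr2:197499994-197503457 on the plus strand. The other subunits lie on chromosomes 12 (CCT2), 1 (CCT3), 2 (CCT4 and CCT7), 5 (CCT5), 7 (CCT6A) and 21 (CCT8). The promoter windows of HSPD1, HSPE1 and TCP1 are shown first, because each of them starts close to a gene transcribed in the other direction and HSPD1 carries a long heat shock element match. The sequences are RefSeq windows of build GRCh38.p14, from 250 bases before to 50 bases after an annotated start site, read 5′ to 3′ on the strand of the gene, with the matches to a pair of opposed GAA units in capitals. They lie at chr2:197499791-197500090 on the minus strand for HSPD1, chr2:197500129-197500428 on the plus strand for HSPE1, and chr6:159789553-159789852 on the minus strand for TCP1.
HSPD1: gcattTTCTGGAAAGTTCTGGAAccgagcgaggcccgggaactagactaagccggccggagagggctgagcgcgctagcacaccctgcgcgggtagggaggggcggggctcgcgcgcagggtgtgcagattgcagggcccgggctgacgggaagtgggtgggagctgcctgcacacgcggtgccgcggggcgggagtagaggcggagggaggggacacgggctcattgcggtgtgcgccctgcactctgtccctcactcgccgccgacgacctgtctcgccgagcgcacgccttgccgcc
HSPE1: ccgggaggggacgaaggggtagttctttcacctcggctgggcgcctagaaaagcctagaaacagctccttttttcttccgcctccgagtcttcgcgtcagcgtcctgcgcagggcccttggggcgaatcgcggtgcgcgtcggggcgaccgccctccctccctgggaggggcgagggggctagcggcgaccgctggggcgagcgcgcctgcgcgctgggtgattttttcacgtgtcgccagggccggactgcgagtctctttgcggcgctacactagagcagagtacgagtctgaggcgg
TCP1: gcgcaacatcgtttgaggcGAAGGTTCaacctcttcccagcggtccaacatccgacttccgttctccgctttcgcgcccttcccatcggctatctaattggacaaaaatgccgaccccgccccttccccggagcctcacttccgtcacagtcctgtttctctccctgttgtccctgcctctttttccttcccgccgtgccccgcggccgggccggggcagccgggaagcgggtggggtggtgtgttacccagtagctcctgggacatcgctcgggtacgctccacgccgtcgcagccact
The HSPD1 window holds TTCTGGAAAGTTCTGGAA, 18 bases with 4 alternating GAA units, on chromosome 2 from 197500068 to 197500085, starting 245 bases before the annotated start site at 197499840. The same match lies 294 bases before the HSPE1 start site at 197500379, which is on the opposite strand and outside the HSPE1 window. By the GENCODE coordinates above, the match lies within the HSPE1 gene. The annotated HSPD1 start sites lie 539 and 105 bases from that of HSPE1. The window of the nearer one, at 197500274, is not shown and holds no match, and from that site the match lies downstream. TCP1 and MRPL18, a mitochondrial ribosomal protein gene, are likewise divergent, with start sites as close as 210 bases, and the capitals in the TCP1 window lie 231 bases before its start site.

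Windows were at hand for 9 of the 10 genes. No window for CCT6A was among those at hand, so it was not searched. Each motif was searched on both strands, and longer motifs contain the shorter ones. GAANNTTC was present in 6.77% of all 35116 RefSeq windows and in those of TCP1, CCT2 and HSPD1. TTCNNGAA was present in 7.74% of windows and in those of CCT4 and HSPD1. A run of 3 units, GAANNTTCNNGAA or TTCNNGAANNTTC, was present in 0.49% of windows, and a run of 4 units, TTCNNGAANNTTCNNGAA or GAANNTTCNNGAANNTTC, in 0.0342%, that is in 12 windows. HSPD1 was the one member among these 9 with a match of 3 or 4 units. A match describes the letters of a window and is not a binding site.

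Libraries held 14050275 to 25057003 counts and the 10 genes were measured well above zero in each, from 1505 counts for the lowest HSPE1 value to 29663 for the highest HSPD1 value. Epithelial markers (PAX8, EPCAM, KRT8, KRT18, KRT19, CDH1, SOX17) were present in all 12 libraries, whereas the steroid receptors ESR1 and PGR were at most 0.51 and 0.284 TPM (an abundance scaled to transcript length and library total). Summed over 6 leukocyte markers, RNA was 7.17 to 8.91 TPM in untreated and 8.84 to 12.3 in treated Ishikawa cells, and 19.3 to 23.3 TPM in untreated and 28.5 to 36.4 in treated KLE cells, most of it CD68. Mitochondrially encoded genes took 6.16 to 7.21% of counts in untreated and 6.20 to 6.40% in treated Ishikawa libraries, and 5.91 to 6.82% in untreated and 4.05 to 4.72% in treated KLE libraries. The part of these shifts in the results for the chaperonin genes was not tested. The sum of 5 endothelial markers was 1.49 to 4.55 TPM. The second untreated Ishikawa library stood apart: it was the deepest, the fibroblast markers DCN and LUM were at 0 in it, and its 6 fibroblast markers summed to 6.82 TPM against 14.9 to 50.8 in the other 11 libraries. By group that sum was 6.82 to 30.1 TPM in untreated Ishikawa, 16.3 to 37.7 in copper-treated Ishikawa, 22.9 to 50.8 in untreated KLE and 14.9 to 31.5 in copper-treated KLE cells. Member calls that changed and values that moved over 1.5 times without this library are given with and without it. In bulk samples, fewer cells of a type and less RNA per cell cannot be told apart.

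Per transcript length, HSPD1 was the most abundant of the 10 genes in every library and TCP1 was next. In untreated Ishikawa cells HSPD1 stood at 1114 ± 21.3 TPM (SD, n = 3) and TCP1 at 487 ± 20.6. CCT3 (435 ± 13.1), CCT6A (416 ± 24.6), CCT8 (414 ± 10.8), CCT2 (407 ± 12.9), CCT5 (391 ± 15.4), CCT7 (362 ± 16.7) and HSPE1 (354 ± 73.5) followed, and each of these overlapped its neighbour in the order. CCT4 was lowest, at 261 ± 2.03 TPM. The order in untreated KLE cells was HSPD1 (990 ± 17.9 TPM), TCP1 (507 ± 18.4), CCT6A (469 ± 1.57), CCT5 (441 ± 8.01), CCT3 (437 ± 8.01), HSPE1 (432 ± 32.5), CCT7 (369 ± 10.8), CCT2 (368 ± 16.3), CCT8 (279 ± 4.90) and CCT4 (276 ± 14.8). There CCT5, CCT3 and HSPE1 overlapped along the order, as did CCT7 with CCT2 and CCT8 with CCT4.

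**Figure D1:**
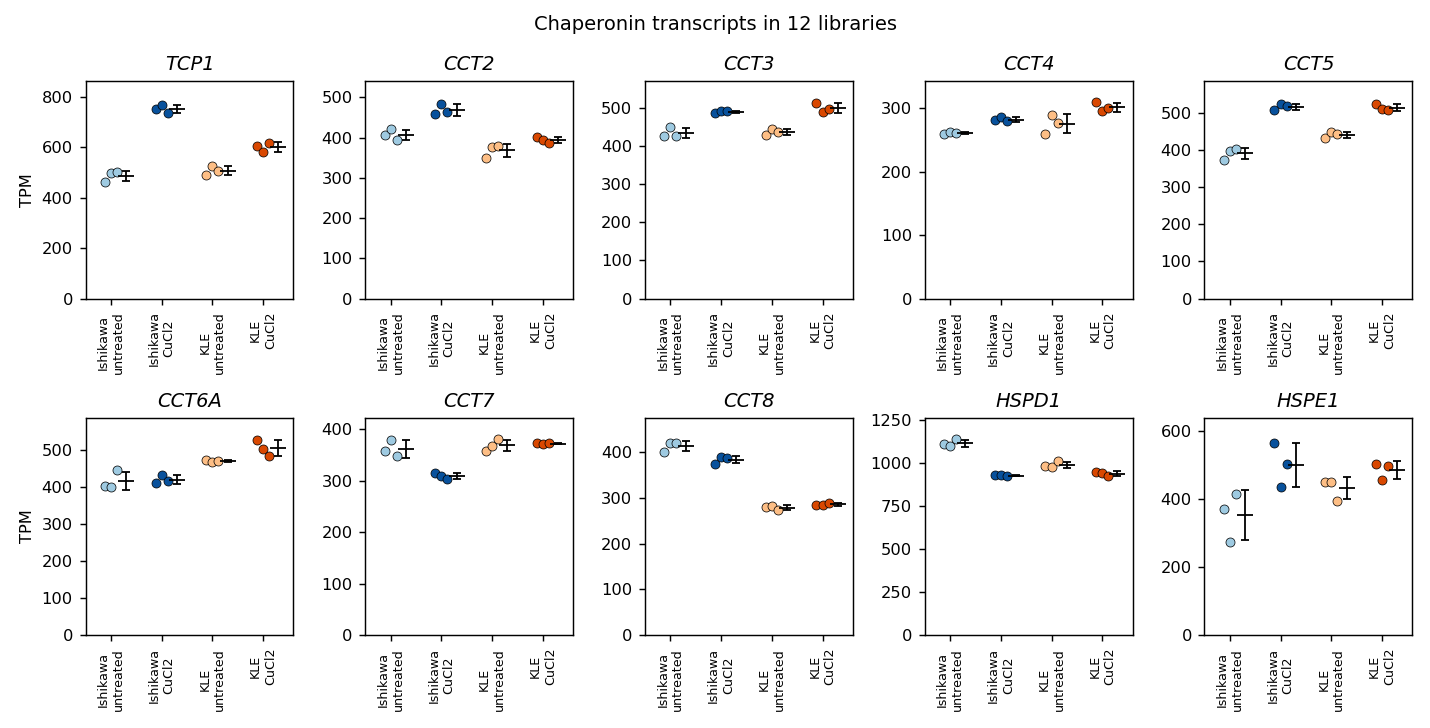
Level of each of the 10 chaperonin genes in TPM in every library, with points for single libraries and lines for the group mean ± SD (n = 3), coloured by line and treatment. TCP1 and CCT5 are higher in all 3 copper-treated than in all 3 untreated libraries of either line, and HSPD1 is lower in TPM.

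With copper, most TRiC subunits and HSPE1 rose in both lines, by up to 1.73-fold in Ishikawa and up to 1.23-fold in KLE cells, whereas HSPD1, CCT7 and CCT8 were not called in either. In Ishikawa cells 7 of the 10 genes were called higher (edgeR's quasi-likelihood test, adjusted p under 0.05), against 33.8% of the 13359 genes tested (69.1% in either direction). None was called lower, against 35.3% of genes, and the count of falls was also 0 at an unadjusted p under 0.05, with DESeq2 and with limma-voom. It was 2, with 5 or 6 genes called higher, under upper-quartile factors (5), library totals (5) and limma on log2(TPM + 1) (6), and also 2 in a fit of all 12 libraries. Of all 13359 genes, upper-quartile factors called 5722 lower, library totals 6068 and limma on log2(TPM + 1) 5619. The fit of all 12 libraries called 5445 of 13663 lower. In KLE cells 7 of 10 were called higher against 25.6% of 13031 genes tested (50.8% in either direction), and 0 lower against 25.2%, again 0 at an unadjusted p under 0.05 and with both other tools. With upper-quartile factors 1 was called lower there, beside 3943 of all 13031 genes. With limma on log2(TPM + 1) 4 were called higher, beside 2122 of all genes. The median log2 fold change of the 10 was 0.33 in Ishikawa and 0.15 in KLE cells, beside -0.013 and -0.002 over all genes tested. CPM are counts per library size after TMM scaling, here with factors from all 12 libraries. In CPM, treated and untreated libraries did not overlap, in either direction, for 9 of the 10 genes in Ishikawa, all but CCT8. In KLE cells this held for 10 of 10. The shares of all genes tested were 72.9% and 56.7%. These counts include genes with negative log2 fold changes, HSPD1 in both lines (-0.075 and -0.03) and CCT7 in Ishikawa (-0.046). The 7 genes called higher were TCP1, CCT2, CCT3, CCT4, CCT5, CCT6A and HSPE1 in each line. Scaling mattered in Ishikawa cells: when libraries were scaled by their totals instead of TMM factors, the median of all genes moved to -0.17 and that of the TRiC subunits to 0.17, so values below are relative to TMM scaling unless stated.

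TCP1, the alpha subunit for which the complex is named, changed most among the TRiC genes. Its level was 463, 497 and 501 TPM in the 3 untreated Ishikawa libraries and 753, 769 and 737 TPM in the 3 copper-treated ones. In KLE cells it was 490, 527 and 505 TPM untreated and 606, 581 and 616 TPM with copper. The groups did not overlap in either line, and the treated Ishikawa libraries were the highest of the 12. The log2 fold change was 0.79 ± 0.04 (SE, edgeR adjusted p = 5.91e-10) in Ishikawa and 0.30 ± 0.03 (edgeR adjusted p = 1.37e-10) in KLE cells. Part of the TCP1 reads were shared with other genes in the authors' quantification, since its expected counts were not whole (within 1e-06) in any of the 12 libraries.

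CCT5, the epsilon subunit, was next. It was at 373, 398 and 402 TPM in untreated and 508, 523 and 519 TPM in treated Ishikawa libraries. In KLE cells the values were 432, 448 and 442 TPM untreated and 524, 510 and 508 TPM treated. Treated and untreated levels did not overlap, and the treated levels overlapped between the lines although the untreated levels were higher in KLE. The log2 fold change was 0.55 ± 0.04 (edgeR adjusted p = 1.82e-08) in Ishikawa and 0.27 ± 0.03 (edgeR adjusted p = 4.66e-10) in KLE cells.

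CCT2, CCT3 and CCT4, the beta, gamma and delta subunits, rose less. CCT2 went from 406, 421 and 395 TPM to 458, 485 and 464 TPM in Ishikawa (log2 fold change 0.39 ± 0.04). In KLE cells CCT2 was 350, 376 and 380 TPM untreated and 401, 393 and 387 TPM treated (0.13 ± 0.03). CCT3 was 427, 450 and 428 TPM untreated and 488, 492 and 492 TPM treated in Ishikawa (0.36 ± 0.04). These subunits were each higher in every treated than in every untreated library of the same line. CCT3 in KLE cells was 429, 445 and 436 TPM untreated and 515, 489 and 499 TPM treated (0.23 ± 0.03). CCT4, the lowest subunit, was 259, 263 and 262 TPM untreated and 281, 286 and 280 TPM treated in Ishikawa (0.30 ± 0.04), and 260, 289 and 278 against 309, 296 and 300 TPM in KLE cells (0.16 ± 0.03). The edgeR adjusted p of these 6 changes lay between 4.72e-08 and 0.000719. In KLE cells the CCT2 change was not called in TPM (limma on log2(TPM + 1), 0.10, adjusted p = 0.0874).

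CCT6A, the zeta subunit, was called higher by a small margin: log2 fold changes were 0.20 ± 0.05 in Ishikawa (edgeR adjusted p = 0.0029) and 0.14 ± 0.03 in KLE cells (edgeR adjusted p = 0.000303). Its TPM values in Ishikawa, 402, 400 and 444 untreated and 411, 432 and 415 treated, overlapped. In KLE cells they were 471, 467 and 469 untreated and 526, 501 and 484 treated, without overlap. The Ishikawa call was lost with upper-quartile factors (0.08, edgeR adjusted p = 0.162), with library totals (0.04, edgeR adjusted p = 0.459) and in TPM (limma, 0.01, adjusted p = 0.845). The KLE call was lost in TPM (limma, 0.10, adjusted p = 0.0616).

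CCT7 and CCT8, the eta and theta subunits, did not share in the rise. CCT7 was 358, 380 and 347 TPM in untreated and 315, 309 and 303 TPM in treated Ishikawa libraries, so every treated library was lower on this scale. In KLE cells CCT7 was at 358, 368 and 380 TPM untreated and 373, 371 and 372 TPM treated. Scaled by TMM, the log2 fold change of CCT7 was -0.05 ± 0.04 in Ishikawa (edgeR adjusted p = 0.367) and 0.04 ± 0.03 in KLE cells (0.289). In Ishikawa it was called lower with upper-quartile factors (-0.16, edgeR adjusted p = 0.0051), library totals (-0.20, edgeR adjusted p = 0.000926), limma on log2(TPM + 1) (-0.23, adjusted p = 0.00343) and a fit of all 12 libraries (-0.10, edgeR adjusted p = 0.0129). CCT8 was 401, 420 and 420 TPM untreated and 375, 389 and 388 TPM treated in Ishikawa, and 280, 283 and 273 against 284, 285 and 289 TPM in KLE cells. Its log2 fold change was 0.08 ± 0.04 in Ishikawa (edgeR adjusted p = 0.114) and 0.07 ± 0.03 in KLE cells (0.0863). The sign in Ishikawa turned with the scaling, to -0.04 with upper-quartile factors, -0.08 with library totals and -0.11 in TPM, and none of these was called. The median of all genes in Ishikawa moved as well, to -0.125 with upper-quartile factors, -0.167 with library totals and -0.157 in log2(TPM + 1). In the fit of all 12 libraries that median was -0.067.

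**Figure D2:**
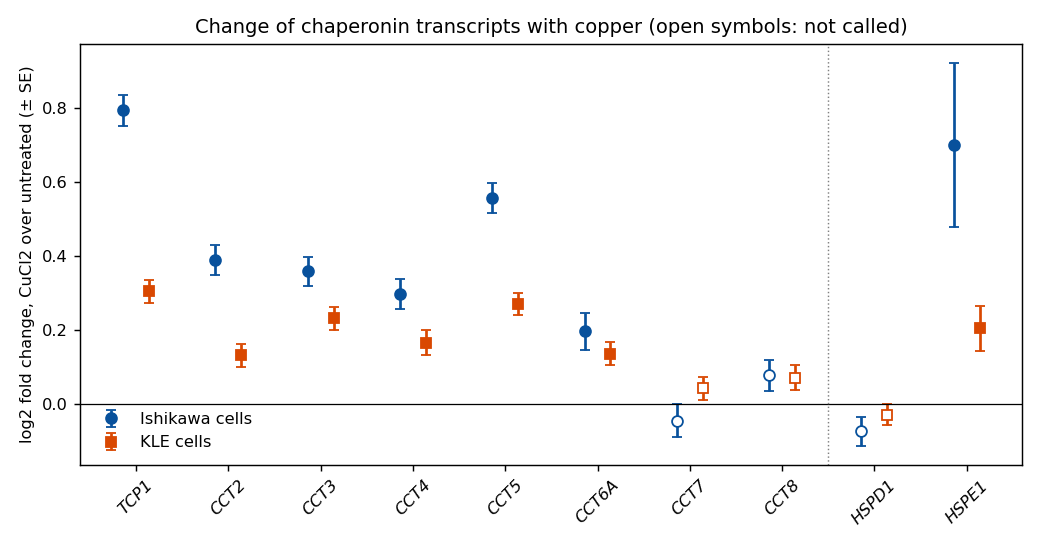
Log2 fold change with copper for each of the 10 genes in Ishikawa and KLE cells from edgeR with TMM scaling, with bars of 1 SE and open symbols for genes not called. TCP1 has the largest value in each line, CCT7, CCT8 and HSPD1 lie near 0, and the HSPE1 bar in Ishikawa is the widest.

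The TRiC subunits therefore became less equal in RNA level. Their summed level was 3173 ± 73.2 TPM in untreated and 3623 ± 53.0 TPM in treated Ishikawa cells, and 3145 ± 68.0 and 3473 ± 58.2 TPM in untreated and treated KLE cells. The coefficient of variation across the 8 subunits was 16.7 ± 1.05% in untreated and 32.5 ± 0.436% in treated Ishikawa libraries. In KLE libraries it was 21.8 ± 0.416% and 26.0 ± 0.666%. The highest subunit exceeded the lowest by 1.86-fold on average in untreated and 2.67-fold in treated Ishikawa cells, and by 1.85-fold to 1.89-fold in untreated and 2.04-fold to 2.14-fold in treated KLE libraries. TCP1 was the highest subunit in all 12 libraries. CCT4 was the lowest in all 6 Ishikawa libraries and in the first untreated KLE library, and CCT8 in the other 5 KLE libraries.

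Set against the mean of the 8 subunits in the same library, which no library scaling touches, TCP1 stood at 1.23 in untreated and 1.66 in treated Ishikawa cells, and at 1.29 and 1.38 in KLE cells. CCT5 moved from 0.986 to 1.14 in Ishikawa and from 1.12 to 1.18 in KLE cells. CCT7 moved the other way, from 0.912 to 0.682 and from 0.938 to 0.857. CCT8 went from 1.04 to 0.847 in Ishikawa and from 0.709 to 0.659 in KLE cells. CCT3 went from 1.10 to 1.08 in Ishikawa and from 1.11 to 1.16 in KLE cells. These ratios show unequal change among subunits and not that any of them held still.

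**Figure D3:**
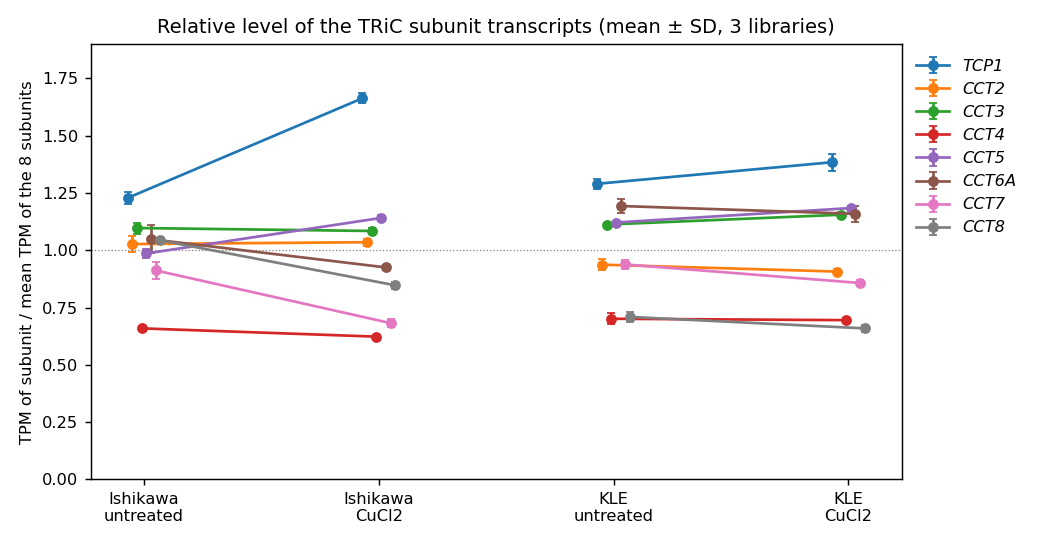
Level of each TRiC subunit divided by the mean of the 8 subunits of the same library, as group mean ± SD (n = 3). TCP1 lies above 1 in every group and moves up with copper, most in Ishikawa cells, where CCT7 and CCT8 move down.

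The mitochondrial pair separated. HSPD1, the ring-forming HSP60, was 1108, 1096 and 1137 TPM in untreated and 929, 930 and 923 TPM in treated Ishikawa libraries. In KLE cells it was 984, 976 and 1010 TPM untreated and 948, 943 and 922 TPM treated. The treated libraries lay below the untreated ones in both lines, most clearly in Ishikawa. Scaled by TMM the log2 fold change was only -0.08 ± 0.04 in Ishikawa (edgeR adjusted p = 0.102) and -0.03 ± 0.03 in KLE cells (edgeR adjusted p = 0.386). In Ishikawa HSPD1 was called lower with upper-quartile factors (-0.19, edgeR adjusted p = 0.00076), library totals (-0.23, edgeR adjusted p = 8.53e-05), limma on log2(TPM + 1) (-0.26, adjusted p = 0.000676), a fit of all 12 libraries (-0.13, edgeR adjusted p = 0.000697) and without the second untreated library (-0.11, edgeR adjusted p = 0.00287). In KLE cells it was called lower with upper-quartile factors alone among the alternatives run (-0.07, edgeR adjusted p = 0.024). The median of all genes was also negative in these fits. In Ishikawa it was -0.125 with upper-quartile factors, -0.167 with library totals and -0.157 in log2(TPM + 1). It was -0.067 in the fit of all 12 libraries and -0.017 without the second untreated library. In KLE cells it was -0.046 with upper-quartile factors.

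HSPE1, the HSP10 lid, was higher with copper. Its level was 372, 273 and 416 TPM in untreated and 566, 436 and 502 TPM in treated Ishikawa libraries. KLE libraries held 450, 451 and 394 TPM untreated and 502, 456 and 498 TPM treated. The groups did not overlap in either line, although the gap was narrow and the spread in Ishikawa was the widest of the 10 genes. The log2 fold change was 0.70 ± 0.22 in Ishikawa (edgeR adjusted p = 0.0423) and 0.20 ± 0.06 in KLE cells (edgeR adjusted p = 0.0117).

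The Ishikawa call for HSPE1 was not stable to leaving out single libraries, and the estimate fell most without the second untreated or the first treated one. It was lost without the first untreated library (0.74, edgeR adjusted p = 0.0942), the second untreated (0.51, edgeR adjusted p = 0.0632), the first treated (0.59, edgeR adjusted p = 0.105) or the third treated library (0.70, edgeR adjusted p = 0.091). It was also lost with upper-quartile factors (0.59, edgeR adjusted p = 0.0736), library totals (0.55, edgeR adjusted p = 0.0797) and no count filter (0.68, edgeR adjusted p = 0.0643). The lowest HSPE1 value was in the second untreated library, the one with DCN and LUM at 0. The part of that library's other differences in the HSPE1 value was not tested. In KLE cells the HSPE1 value was 0.13 without the third untreated library (edgeR adjusted p = 0.0305), and its call was lost without the first or the third treated library (0.18 in each, edgeR adjusted p = 0.0656 and 0.0575), in TPM (0.17, limma adjusted p = 0.0507) and in a fit of all 12 libraries (0.20, edgeR adjusted p = 0.397).

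The level of HSPD1 over that of HSPE1, both in TPM, was 3.24 ± 0.684 in untreated Ishikawa libraries (2.73 to 4.02) and 1.87 ± 0.247 in treated ones (1.64 to 2.13), without overlap. In the untreated libraries other than the second it was 2.98 and 2.73. In KLE cells it was 2.30 ± 0.224 untreated (2.16 to 2.56) and 1.94 ± 0.119 treated (1.85 to 2.07). Here too the untreated libraries all lay above the treated ones. Part of the reads of HSPE1 were shared with other genes in all 12 libraries. HSPE1-MOB4, a readthrough transcript that starts within HSPE1, held 68 to 152 counts, against 1505 to 2765 for HSPE1.

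The neighbours on the opposite strand or downstream also rose or were not called. MRPL18 was 141, 131 and 146 TPM in untreated and 162, 149 and 154 TPM in treated Ishikawa libraries (log2 fold change 0.34, edgeR adjusted p = 0.000532). In KLE cells MRPL18 was 149, 154 and 152 TPM untreated and 173, 164 and 179 TPM treated (0.22, edgeR adjusted p = 0.000203). MRPL18 and its divergent partner TCP1 were thus both called higher in both lines, with TCP1 the larger. MOB4, downstream of HSPE1, changed by 0.22 in Ishikawa (edgeR adjusted p = 0.016) and by 0.12 in KLE cells (edgeR adjusted p = 0.0873). HSPE1-MOB4 changed by 1.02 (edgeR adjusted p = 0.00139) and 0.38 (edgeR adjusted p = 0.115). Whether counting used strand is not given in the sources used here. HSPE1 lies within the span of HSPD1, so reads from the overlap of these divergent genes may be shared. TCP1 ends at 159789749 and MRPL18 starts at 159789812 in the GENCODE coordinates, without overlap. The expected counts of MRPL18 were whole in every library.

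The response to copper differed between the lines for 4 of the 10 genes in a fit of all 12 libraries, against 45.4% of genes tested. TCP1 (-0.43 ± 0.06 on the log2 scale, KLE minus Ishikawa, edgeR adjusted p = 1.22e-06), CCT5 (-0.23 ± 0.05, edgeR adjusted p = 0.000457) and CCT2 (-0.20 ± 0.05, edgeR adjusted p = 0.00177) rose less in KLE cells. That is 3 of 10 on the lower side, against 20.8% of 13663 genes tested. CCT7 was the 1 gene on the higher side, against 24.6% of genes (0.14 ± 0.05, edgeR adjusted p = 0.0237). The CCT7 call was lost with RLE factors (0.10, edgeR adjusted p = 0.105), with DESeq2 (0.10, adjusted p = 0.103), with no count filter (0.12, edgeR adjusted p = 0.103), and without any 1 of the 3 treated Ishikawa libraries, the first untreated or the third treated KLE library (edgeR adjusted p = 0.0833 to 0.239). The CCT2 call was lost in TPM (-0.11, limma adjusted p = 0.173).

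For the other 6 genes no difference of responses was called. The estimates were -0.07 for CCT3, -0.08 for CCT4, -0.003 for CCT6A, 0.05 for CCT8, 0.10 for HSPD1 and -0.44 ± 0.25 for HSPE1 (edgeR adjusted p = 0.181). Without the second untreated Ishikawa library the HSPE1 estimate was -0.25 (edgeR adjusted p = 0.293) and that of CCT6A 0.05 (edgeR adjusted p = 0.472). HSPD1 was called with library totals (0.17, edgeR adjusted p = 0.00281), in TPM (0.18, limma adjusted p = 0.00728) and without the second untreated Ishikawa library (0.13, edgeR adjusted p = 0.00537). CCT3 was called with DESeq2 (-0.11, adjusted p = 0.0417), CCT8 in TPM (0.15, limma adjusted p = 0.0314) and CCT4 without the first untreated KLE library (-0.14, edgeR adjusted p = 0.0446). The median response difference of all genes was 0.034 with TMM factors, 0.101 with library totals and 0.106 in log2(TPM + 1).

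Between the untreated lines, CCT8 differed most. It was lower in KLE than in Ishikawa cells by 0.51 ± 0.04 on the log2 scale, a fold change of 0.703 (edgeR adjusted p = 4.76e-11), and its lowest Ishikawa value, 401 TPM, lay well above its highest untreated KLE value, 283 TPM. HSPD1 was also lower in KLE cells (-0.13, edgeR adjusted p = 0.00174) and CCT6A (0.24, edgeR adjusted p = 7.94e-05), CCT5 (0.20, edgeR adjusted p = 3.27e-05) and CCT4 (0.14, edgeR adjusted p = 0.00359) were higher. In all, 5 of 10 were called higher in KLE, against 24.5% of genes, and 3 lower, against 25.6% (50% in either direction). The lines did not overlap in CPM for 9 of 10, against 55.1% of genes. TCP1 (0.11, edgeR adjusted p = 0.0223), CCT7 (0.09, edgeR adjusted p = 0.0407) and CCT2 (-0.08, edgeR adjusted p = 0.0486) were close to the threshold. TCP1 lost its call without the first untreated Ishikawa or the second untreated KLE library (edgeR adjusted p = 0.134 and 0.148), CCT7 without any 1 untreated library except the second Ishikawa one (0.0658 to 0.134), and CCT2 without any 1 of 11 of the 12 libraries (0.0504 to 0.228). In TPM, TCP1, CCT4 and CCT7 were not called (limma adjusted p = 0.289, 0.154 and 0.59). HSPE1, not called with all libraries (0.36, edgeR adjusted p = 0.126), was 0.17 without the second untreated Ishikawa library (edgeR adjusted p = 0.342) and was called without the third (0.51, edgeR adjusted p = 0.0472).

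In copper-treated cells 5 of the 8 genes called between the untreated lines were called. TCP1, lower by 0.32 in KLE (edgeR adjusted p = 1.29e-07), CCT2 (-0.28, edgeR adjusted p = 1.58e-07) and CCT8 (-0.46, edgeR adjusted p = 1.89e-10) were called lower, 3 of 10 against 32.3% of genes. CCT7 (0.23, edgeR adjusted p = 5.11e-06) and CCT6A (0.23, edgeR adjusted p = 5.49e-05) were called higher, 2 of 10 against 33.3% (65.7% in either direction). The lines did not overlap in CPM for 8 of 10, against 71.1% of genes. The sign for TCP1 was thus opposite in treated and untreated cells, and CCT8 was lower in KLE cells in both states. These comparisons share libraries with the copper comparisons and are not independent of them.

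Across the 12 libraries the subunits did not all move as a block, as a description with no test, since the points share 2 lines and 2 treatments. Pearson's r on log2(CPM + 1) was 0.97 for CCT3 with CCT5, -0.87 for CCT7 with CCT8 and -0.54 for HSPD1 with HSPE1. HSPD1 was opposed to TCP1 (-0.59) and HSPE1 ran with it (0.74). Of 9579 genes, those most like the mean of the 8 TRiC genes were HACL1 and RTCA (r = 0.99 each), MT1F, a metallothionein (0.99), TXNRD1, thioredoxin reductase (0.99), and DDX18, an RNA helicase (0.99). Each gene was standardized before these means were taken. Those most like the mean of HSPD1 and HSPE1 were ATP5PF (0.91), RPL22 (0.90), RPS25 (0.89), ATP5F1C (0.86) and CAMTA1 (0.86). They are 2 ATP synthase subunits, 2 ribosomal proteins and a transcription activator. Since HSPD1 and HSPE1 were opposed, likeness to their mean is not likeness to either gene. The TRiC mean also holds opposed subunits, such as CCT7 with CCT8 (-0.87) and with CCT2 (-0.75). Likeness to that mean is therefore not likeness to each subunit.

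The lists that follow are read against the shares of all genes tested, 33.8% higher and 35.3% lower in Ishikawa and 25.6% higher and 25.2% lower in KLE cells (edgeR with TMM scaling). Of the 6 prefoldin genes, whose product hands unfolded actin and tubulin to TRiC, 4 were called higher in Ishikawa and 5 in KLE cells, with medians of 0.33 and 0.20, against 33.8% and 25.6% of all genes. PFDN4 rose most, from 80.8 ± 7.79 to 164 ± 8.38 TPM in Ishikawa (log2 fold change 1.25) and from 97.3 ± 5.37 to 129 ± 7.76 TPM in KLE cells (0.45). Among 5 phosducin-like and other cofactors 3 rose and 1 fell in Ishikawa and 1 rose in KLE cells, with medians of 0.25 and -0.01. The leading one, TXNDC9, an inhibitory binding partner of TRiC, went from 35.7 ± 1.50 to 67.4 ± 1.34 TPM in Ishikawa (1.11) and from 40.4 ± 1.43 to 55.4 ± 4.76 TPM in KLE cells (0.45). PDCL2 fell by 1.10 on the log2 scale in Ishikawa (edgeR adjusted p = 0.0294). It had few counts, 26, 20 and 22 untreated and 13, 8 and 5 treated, and the groups overlapped in CPM.

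In the R2TP and prefoldin-like group, 3 of 8 tested rose and 3 fell in Ishikawa, and 3 rose and 1 fell in KLE cells. The Ishikawa counts are near the shares of all genes (33.8% higher and 35.3% lower). PDRG1 rose (0.91 and 0.41) and URI1, an unconventional prefoldin, fell (-0.48 and -0.32). Of 6 tubulin-folding cofactors 1 rose and 2 fell in Ishikawa, and 2 rose and 1 fell in KLE cells. TBCA rose in Ishikawa (0.51), TBCB in KLE cells (0.34), and TBCD fell in both (-0.54 and -0.19). Of the other chaperonin-like genes (CCT6B, CCT8L2, MKKS, BBS10 and BBS12), 3 were tested in each line. BBS10, a Bardet-Biedl syndrome gene, fell in Ishikawa (-0.27, edgeR adjusted p = 0.0333), and MKKS rose in KLE cells (0.15, edgeR adjusted p = 0.0167).

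Among the clients of TRiC, of 13 actin and tubulin genes 7 rose and 3 fell in Ishikawa and 9 rose and 2 fell in KLE cells, with medians of 0.45 and 0.15, where 33.8 and 25.6% of all genes were called higher. TUBB3, a beta-tubulin typical of neurons, led in Ishikawa (3.68) and TUBA4A in KLE cells (0.89), while TUBB2B fell in both (-1.04 and -0.96). Near-identical tubulin genes can exchange reads in quantification. Of 12 WD40-repeat and other clients 1 rose and 5 fell in Ishikawa, and 3 rose and 5 fell in KLE cells. Of all genes 33.8% were called higher and 35.3% lower in Ishikawa, and 25.6% and 25.2% in KLE cells. With library totals 9 of these 12 were called lower in Ishikawa, where that scaling called 6068 of all 13359 genes lower. PLK1, a mitotic kinase, fell most (-2.11 and -0.75), and STAT3 rose in both (0.25 and 0.32).

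In mitochondria, HSPA9 rose and TRAP1 fell in both lines, where HSPD1 was not called. Of 7 genes of the mitochondrial HSP70 and HSP90 systems 5 rose and 1 fell in Ishikawa and 4 rose and 1 fell in KLE cells, against 33.8% of all genes higher in Ishikawa and 25.6% in KLE cells. HSPA9, the matrix HSP70, went from 506 ± 33.6 to 963 ± 46.2 TPM in Ishikawa (log2 fold change 1.19, edgeR adjusted p = 4.19e-12) and from 503 ± 13.8 to 586 ± 1.10 TPM in KLE cells (0.28, edgeR adjusted p = 7.07e-11). TRAP1, the mitochondrial HSP90, fell in both (-0.58 and -0.18), and HSCB rose in KLE cells (0.37), where its treated and untreated libraries overlapped in CPM. In treated Ishikawa libraries the level of HSPA9 thus came close to that of HSPD1, which was 927 ± 3.73 TPM.

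Of 14 import genes 7 rose and 3 fell in Ishikawa and 5 rose and 1 fell in KLE cells. With library totals the Ishikawa split was 3 higher and 5 lower, where that scaling called 3370 of all 13359 genes higher and 6068 lower. With TMM scaling the shares of all genes were 33.8% higher and 35.3% lower in Ishikawa, and 25.6 and 25.2% in KLE cells. TOMM70, a receptor of the outer membrane, rose in both (0.59 and 0.20), PAM16 fell in Ishikawa (-0.29) and TOMM20 in KLE cells (-0.13). Of 9 proteases and disaggregases 2 rose and 3 fell in Ishikawa and 2 rose and 1 fell in KLE cells, near or below those shares. YME1L1 rose in Ishikawa (0.57), CLPB in KLE cells (0.24), and OMA1 fell in both (-0.36 and -0.29). Of 4 transcription factors of the mitochondrial unfolded protein response 3 rose in Ishikawa, led by DDIT3 (1.27), and 2 in KLE cells, led by ATF5 (0.36).

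Most cytosolic chaperones of the HSF1-regulated list rose. Of 14 genes 13 were called higher in Ishikawa and 12 in KLE cells, with medians of 1.03 and 0.37 beside 0.33 and 0.15 for the 8 TRiC genes. Of all genes, 33.8% and 25.6% were called higher. HSPA1A, the inducible HSP70, went from 5.47 ± 0.551 to 539 ± 60.8 TPM in Ishikawa (6.83) and from 7.40 ± 0.831 to 50.5 ± 5.52 TPM in KLE cells (2.80), with the caution that near-identical HSPA1B can share its reads. The response was called smaller in KLE cells for 13 of the 14 genes, against 20.8% of all genes. HSF1 RNA itself changed by 0.06 in Ishikawa (edgeR adjusted p = 0.456) and 0.20 in KLE cells (edgeR adjusted p = 0.00185), and HSF2 rose by 0.43 and 0.18.

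**Figure D4:**
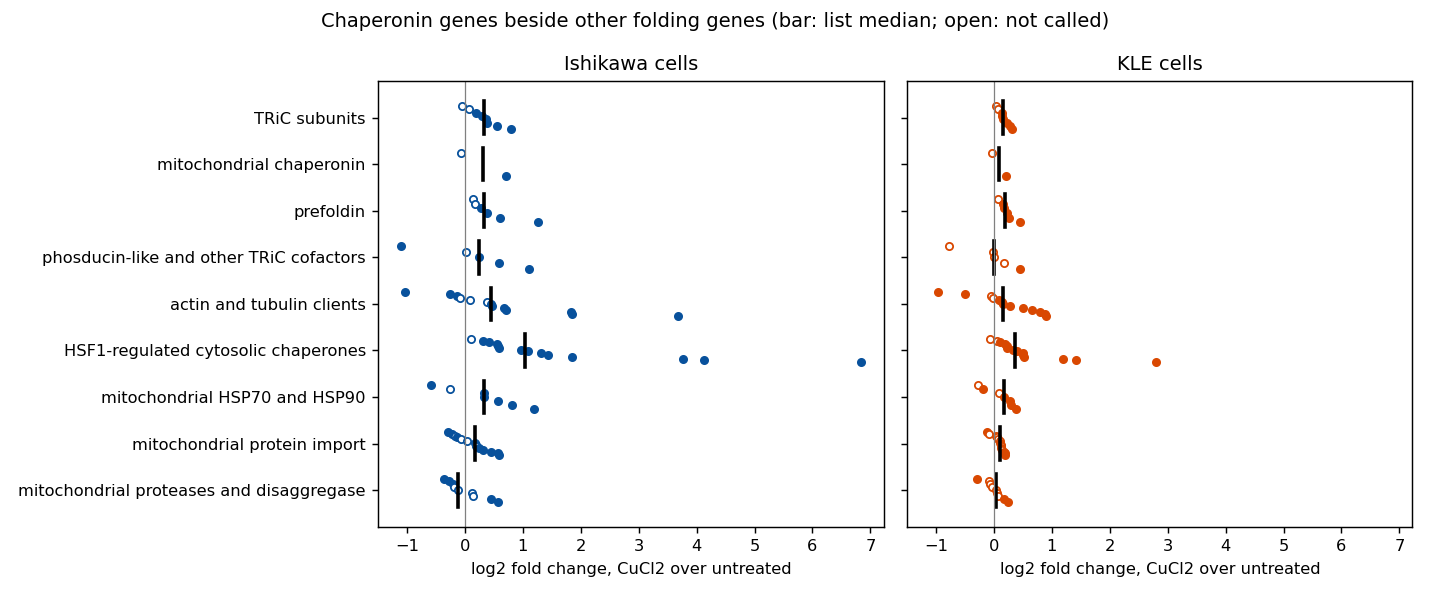
Log2 fold change with copper of the members of 9 gene lists in Ishikawa and KLE cells, with a point for each gene tested (open where not called) and a bar for the list median. Of the lists drawn, the HSF1-regulated cytosolic chaperones have the highest medians (1.03 and 0.37), and the TRiC medians are 0.33 and 0.15.

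Genes were also grouped by the heat shock element match of their RefSeq windows. Of 166 genes with 3 or more alternating units, 56 were tested in Ishikawa cells, of which 24 rose and 18 fell, with a median of 0.20 beside -0.013 over all genes. In KLE cells 18 of 54 rose and 14 fell, with a median of 0.01 beside -0.002. The shares of all genes were 33.8% higher and 35.3% lower in Ishikawa and 25.6% and 25.2% in KLE cells. Of 12 genes with 4 units, 4 were tested in Ishikawa and 3 in KLE cells. CHORDC1, a co-chaperone of HSP90, rose from 127 ± 9.14 to 430 ± 25.6 TPM in Ishikawa (1.85) and from 154 ± 0.922 to 223 ± 7.50 TPM in KLE cells (0.52). PAPPA2 was also called higher in Ishikawa cells. COMMD1 and HSPD1 were not called in either line. A match of 4 units was thus found in genes with and without a called change in RNA level at 24 h.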

How the data were processed

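Bulk RNA-seq of 12 libraries (4 groups of 3) was analysed. The submitters' processing notes name build GRCh38.p14, RSEM, HISAT2 2.1.0, Bowtie2 2.2.8, fastp 0.18.0, R 4.2.2 and DESeq2. Which step used which, and the annotation release, is not given in the sources used here. In the authors' all-genes table are expected counts and TPM, and the deposited whole counts are those expected counts rounded, differing by at most 0.5. Per the file headers the authors' FPKM-named tables also hold TPM, which were used where FPKM had been intended.

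The whole counts were tested with the two-sided robust quasi-likelihood test of edgeR 4.0.16 (filterByExpr, TMM factors, Benjamini-Hochberg adjusted p under 0.05 over all genes tested) in R 4.3.3. Copper was compared within each line (6 libraries), and the other contrasts came from a fit of 12. SE is the absolute log2 fold change over the square root of F. DESeq2 1.42.0, limma 3.58.1 on log2(TPM + 1) or log2(TPM + 0.1), limma-voom, other factors and filters and left-out libraries were alternatives. On simulated data with 200 genes changed 1.5-fold, the test recovered 77% in Ishikawa, 84% in KLE cells and 51.5% for the response difference. Between the lines it recovered 74%, untreated or treated. Of the calls 3.1 to 7.7% were false, the most in KLE cells. Smaller changes were not simulated, nor was a case in which most genes change. In the data 69.1% of genes were called in Ishikawa and 50.8% in KLE cells. The recovered and false shares therefore hold for the simulated setting only.

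The members and lists were chosen with earlier results of these data known. From each list the genes called with the largest rise and fall in each line were named. Scaling of list counts was tried after seeing the data. Likeness used genes of at least 10 CPM. CHORDC1, COMMD1 and PAPPA2 were named for their promoter match, after their values were seen. Replicate p-values measure the spread between these libraries only.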

Additional observations from a re-analysis of the deposited data

Results flagged for a closer look

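A test of the difference between the responses of the lines (edgeR's quasi-likelihood interaction term, Benjamini-Hochberg adjusted p, log2 scale, KLE minus Ishikawa) passed the threshold for 4 of the 10 chaperonin genes: TCP1 (-0.43, adjusted p = 1.22e-06), CCT2 (-0.20, adjusted p = 0.00177), CCT5 (-0.23, adjusted p = 0.000457) and CCT7 (0.14, adjusted p = 0.0237). Of all 13663 genes tested 45.4% passed it, so 4 of 10 is near that share. TCP1, CCT2 and CCT5 rose in both lines and less in KLE cells. CCT7 was not called in either line by itself.

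Of the named genes outside the 10, a smaller value in KLE cells was found for HSPA1A (-3.97, adjusted p = 2.58e-10), TUBB3 (-2.84, adjusted p = 4.28e-13), DDIT3 (-1.07, adjusted p = 4.5e-06), TUBA4A (-0.89, adjusted p = 5.85e-07), HSPA9 (-0.85, adjusted p = 3.22e-12), PFDN4 (-0.74, adjusted p = 1.72e-05), TXNDC9 (-0.61, adjusted p = 5.29e-05), PDRG1 (-0.44, adjusted p = 0.0301), TBCA (-0.36, adjusted p = 0.0163), TOMM70 (-0.34, adjusted p = 6.91e-05) and YME1L1 (-0.33, adjusted p = 5.42e-05). A value above that of Ishikawa cells was found for PLK1 (1.42, adjusted p = 3.22e-12), TRAP1 (0.46, adjusted p = 3.76e-05), TBCD (0.41, adjusted p = 0.000205), PAM16 (0.41, adjusted p = 0.0325), MKKS (0.38, adjusted p = 0.00191) and URI1 (0.22, adjusted p = 0.0237). With 3 libraries in each group, no group was large enough for the check of single outlying libraries.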

How the results depend on the processing

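The numbers of members called moved with the scaling and the unit, and none of the results reversed its direction past the threshold. In Ishikawa cells, 0 members were called lower with TMM factors, and 2 with upper-quartile factors, library totals, limma on log2(TPM + 1), limma on log2(TPM + 0.1) or a fit of all 12 libraries. In KLE cells 1 was called lower with upper-quartile factors, and 4 instead of 7 higher with either TPM pseudocount. For the response difference, 1 was called higher with TMM factors, 0 with RLE factors, no count filter or DESeq2, 2 with library totals and 3 with either TPM pseudocount. Between the untreated lines, 5 were called higher with TMM factors, 3 with library totals and 2 with either TPM pseudocount. Over all genes, the Ishikawa split of 4514 higher and 4714 lower became 3661 and 5722 (upper-quartile factors), 3370 and 6068 (library totals) or 2996 and 5619 (log2(TPM + 1)). The KLE split of 3330 and 3287 became 2685 and 3943 with upper-quartile factors. The response difference split of 3358 and 2848 became 4151 and 2349 (library totals) or 3494 and 1906 (log2(TPM + 1)), and turned to 2942 and 3196 (RLE factors), 2935 and 3069 (no count filter) or 2581 and 3000 (DESeq2). It also turned without any 1 treated Ishikawa library, the first untreated KLE or the third treated KLE library. Beyond what these scalings change by construction, the cause was not tested.

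Leaving out 1 library at a time, Ishikawa members called higher ranged from 6 to 7 and lower from 0 to 1, and genes called from 8546 to 9408. In KLE cells the ranges were 6 to 7, 0 to 0 and 5844 to 6238. For the response difference they were 0 to 2, 3 to 4 and 5598 to 6530, for the untreated lines 3 to 5, 2 to 3 and 6035 to 6842, and for the treated lines 2 to 2, 3 to 3 and 8372 to 9461. Of the single member values under all alternatives, 913 kept their side of the threshold (some that were not called turned sign), 64 lost a call and 23 gained one.

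The replicate numbers were not taken to pair the libraries. After the group mean of each gene was subtracted, same-numbered libraries correlated at 0.05, 0.12 and 0.14 in Ishikawa cells. There each was best with its own number. In KLE cells the values were -0.19, -0.13 and -0.20, and none was best with its own number. Such deviations cancel within a group, so small values alone do not tell whether libraries were paired. With the replicate number as a block, the HSPE1 response difference was called (-0.45, edgeR adjusted p = 0.0187). In that fit the contrast of the untreated lines compares the first replicate of each line and not the group means. Its 4555 genes, with 2 members called higher, are therefore not comparable with the 6838 of the main fit. HSPE1 had the fewest counts of the 10 genes, 1505 to 2765, and its lowest level was in the deepest library.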
